A study of Homo sapiens with 12 samples.

Results

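Transcript levels of 9 integrin subunits and of the integrin ligand EDIL3 were followed across 4 groups of 769-P cells, an established line of human clear cell renal carcinoma. The 10 genes (EDIL3, ITGB3, ITGAV, ITGB5, ITGB1, ITGA5, ITGA2, ITGA3, ITGA6 and ITGB4) were listed by symbol and taken as 10 of the 60617 gene rows in the count tables. EDIL3 and ITGB3 were on the list because earlier results of these data had named them among genes higher in the libraries labelled siDRAIC, so that comparison only describes them. Whether their levels after hnRNPA2B1 siRNA also entered that choice is not known. The other 8 genes were listed as subunits of the same family.

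The cells carried no stated genetic change and differed in the siRNA (small interfering RNA) named in their labels: siDRAIC, aimed at DRAIC, a long non-coding RNA, or sihnRNPA2B1, aimed at hnRNPA2B1, a protein that binds RNA. The controls of the first are labelled siDRAIC-NC and those of the second sihnRNPA2B1-NC. There were 3 libraries per group. All 12 libraries came from this 1 line, grown in RPMI1640 with 10% serum. The labels give no dose, time after transfection or siRNA sequence, and nothing says that libraries of a group came from separate cultures, so the p-values measure the spread between these libraries, which may be technical. Total counts ran from 30798303 to 42760528 per library, and levels are given as CPM, counts scaled to the library total.

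Integrins are receptors made of an alpha and a beta chain that tie the cytoskeleton to the matrix outside the cell. The alpha chain ITGAV pairs with several beta chains, ITGB3 and ITGB5 among them, and reads the RGD motif of ligands such as vitronectin, fibronectin and EDIL3, a secreted protein of the matrix also called DEL-1. ITGB1 pairs with many alpha chains, among them ITGA5 (fibronectin), ITGA2 (collagen), and ITGA3 and ITGA6 (laminins), while ITGB4 pairs with ITGA6 in hemidesmosomes. In kidney, tubule cells use laminin-binding integrins to hold to their basement membrane.

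The RefSeq promoter table (GRCh38.p14) held an entry for 7 of the 10 genes. The 250 bases before the first listed start are shown, 5′ to 3′ on the gene's strand, for EDIL3 and for ITGAV and ITGB5. These are the ligand and the chains of a receptor that binds it. After hnRNPA2B1 siRNA, EDIL3 and ITGAV RNA rose, while ITGB5 RNA fell. Capitals mark GGGCGG, the GC box, on either strand.
EDIL3: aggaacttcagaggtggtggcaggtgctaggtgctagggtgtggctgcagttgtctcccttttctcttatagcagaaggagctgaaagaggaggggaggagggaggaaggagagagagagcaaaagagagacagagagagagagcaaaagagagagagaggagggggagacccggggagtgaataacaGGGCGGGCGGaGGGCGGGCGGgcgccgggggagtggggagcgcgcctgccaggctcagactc
ITGAV: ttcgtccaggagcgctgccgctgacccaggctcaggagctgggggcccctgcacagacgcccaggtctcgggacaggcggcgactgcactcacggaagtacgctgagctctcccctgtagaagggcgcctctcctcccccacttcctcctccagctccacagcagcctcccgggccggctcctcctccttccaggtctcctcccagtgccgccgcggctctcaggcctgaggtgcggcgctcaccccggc
ITGB5: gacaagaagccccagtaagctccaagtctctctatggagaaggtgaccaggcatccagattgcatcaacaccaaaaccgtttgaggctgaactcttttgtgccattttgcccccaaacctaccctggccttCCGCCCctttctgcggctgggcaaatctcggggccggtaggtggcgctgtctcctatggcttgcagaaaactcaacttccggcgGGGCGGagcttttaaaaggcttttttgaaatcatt
These windows lie at chr5:84384881-84385130 (minus strand), chr2:186589806-186590055 (plus strand) and chr3:124901419-124901668 (minus strand). EDIL3 had 4 GC-box matches packed near its start (overlapping matches each count), ITGB5 had 2, and ITGAV had 0. ITGA2 also had 4, ITGB1 had 3, ITGA5 had 1 and ITGA6 had 0, and 42.6% of the 35116 promoter windows of this length held at least 1. After hnRNPA2B1 siRNA, as given below, EDIL3 rose and ITGA2 fell at equal counts of matches, as did ITGAV and ITGA6. ITGB3, ITGA3 and ITGB4 had no entry, and a link between matches and change was not tested. The letters TGANTCA (AP-1), held by 6.57% of windows on either strand, matched in 0 of the 7. GGAATG (TEAD), held by 11.9%, matched in ITGB1 and ITGA5, and TATAAA, held by 10.7%, matched in ITGA6. A match is only a run of letters, and its absence says nothing of a factor.

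EDIL3 (ENSG00000164176) spans chr5:83940554-84384793 on the minus strand and ITGB3 (ENSG00000259207) chr17:47253846-47311816 on the plus strand, in GENCODE 29 on GRCh38. ITGB4 (ENSG00000132470) and ITGA3 (ENSG00000005884) lie on the same chromosome as ITGB3, at chr17:75721328-75757818 and chr17:50055968-50090481, both on the plus strand. ITGAV (ENSG00000138448, chr2:186590065-186680901) and ITGA6 (ENSG00000091409, chr2:172427354-172506282) lie on the plus strand of chromosome 2, and ITGA2 (ENSG00000164171, chr5:52989326-53094779) on the plus strand of chromosome 5. ITGB5 (ENSG00000082781, chr3:124761948-124901418), ITGB1 (ENSG00000150093, chr10:32900319-33005792) and ITGA5 (ENSG00000161638, chr12:54395261-54419460) lie on minus strands. All 10 are protein-coding.

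The siRNA targets were read first. HNRNPA2B1 stood at 428, 396 and 435 CPM in the sihnRNPA2B1-NC libraries and at 291, 307 and 274 after its siRNA, with no overlap (log2 fold change -0.56, adjusted p = 2.16e-09, edgeR). DRAIC had 2, 1 and 2 counts in the siDRAIC-NC libraries and 3, 6 and 0 in those labelled siDRAIC, so its knockdown could not be seen at this depth and the latter are called by their label throughout. Markers of renal carcinoma epithelium (7 genes) summed to 2182 to 3897 CPM with none at 0 in a whole group. Of the 5 fibroblast markers, LUM, DCN and THY1 had 0 to 4 counts in every library. The sum of the 5 was 10.5 to 18.2 CPM in the libraries labelled siDRAIC and 2.55 to 6.59 in the controls of that siRNA, and 3.56 to 4.12 after hnRNPA2B1 siRNA against 2.47 to 3.39 in its controls. COL1A1 and PDGFRB made up nearly all of it. The platelet markers GP9 and PF4, of a cell type rich in ITGB3, were at 0 in every library. Among the 10 genes, replicate 1 of siDRAIC-NC stood apart from the other siDRAIC-NC libraries in ITGAV, ITGB1, EDIL3 and ITGB4. For these 4 the changes against siDRAIC-NC and between the control groups are given with and without it. Leaving it out keeps replicate 1 labelled siDRAIC, whose deviations from its group mean correlated with those of this control at 0.489. Changes against siDRAIC-NC without this control are therefore no correction, and may be too large or too small.

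Per kilobase of exon, ITGA3 was the most abundant of the 10 transcripts and ITGB1 the next in every group, and their library ranges did not touch. ITGA3 stood at 404 ± 18.8 CPM per kb in siDRAIC-NC and 616 ± 31 in sihnRNPA2B1-NC (SD, n = 3), against 263.6 ± 101 and 318 ± 27.3 for ITGB1. A middle tier of ITGAV, ITGB5 and ITGA5 followed at group means of 12.8 to 41.3 CPM per kb, with ITGB3 at 7.66 to 22.1 and, after hnRNPA2B1 siRNA, above ITGA5. ITGB5 and ITGAV overlapped in siDRAIC-NC, as did ITGAV and ITGA5, and ITGB5 and ITGB3, in the libraries labelled siDRAIC. The lowest levels were those of ITGA6 (6.25 to 8.25), EDIL3 (1.49 to 13.2), ITGA2 (1.02 to 2.59) and ITGB4 (1.02 to 4.26). Of the 10 genes, the laminin-binding alpha chains ITGA3 and ITGA6 thus stood far apart, ITGA3 at the top and ITGA6 near the bottom. Lengths are those of all GENCODE 29 exons of a gene, since the transcripts in use are not known. For ITGB3, 2266 of 4394 exon bases overlap a same-strand gene model, and how such reads were counted is not known. Its levels per kilobase, and the ratios and shares given below, may therefore be too low.

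**Figure D1:**
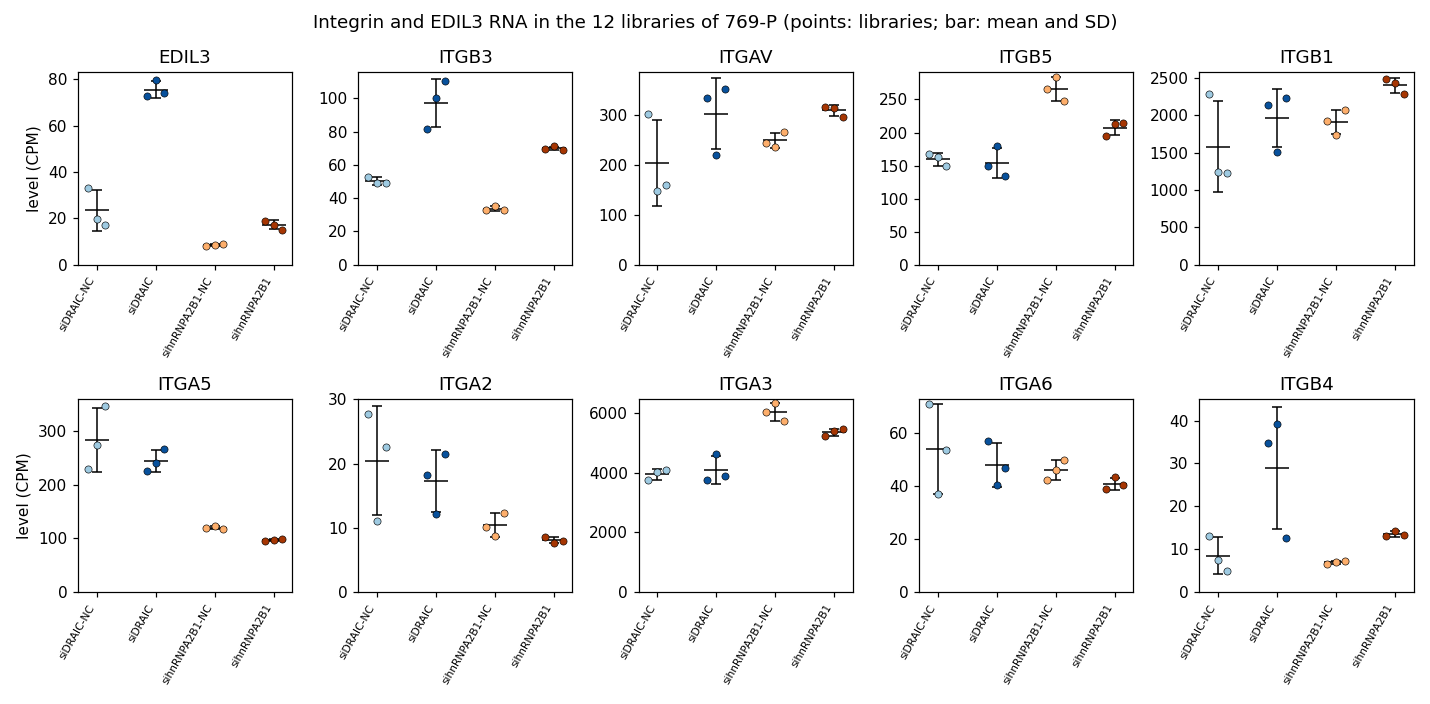
Level of each of the 10 genes in CPM (vertical axis, starting at 0) in the 4 groups of 3 libraries; points are libraries, bars the mean and SD. EDIL3 and ITGB3, both chosen from earlier results, stand apart between each siRNA and its own controls. Replicate 1 of siDRAIC-NC is high for ITGAV (302 CPM) and ITGB1 (2284 CPM).

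After hnRNPA2B1 siRNA the ligand and its less abundant beta chain rose together. EDIL3 was at 8.05, 8.38 and 9.17 CPM in the 3 sihnRNPA2B1-NC libraries and at 19.02, 17.3 and 15.1 after the siRNA. Every siRNA library lay above every control. In bulk RNA, more RNA per cell and more cells that hold it cannot be told apart. The rise was 1.96-fold (log2 fold change 0.97, SE 0.11, adjusted p = 4e-08, edgeR). ITGB3 was at 32.8, 35.4 and 32.8 CPM in the controls and at 69.5, 71.0 and 69.1 after the siRNA, again with no overlap and with the siRNA libraries close to each other. Its rise was 2.03-fold (log2 fold change 1.02, SE 0.07, adjusted p = 1.28e-12, edgeR). Both calls held under every alternative setting tried and without any single library. Both genes were chosen from earlier results of these data, so this is no independent support.

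The partner chains of ITGB3 and EDIL3 moved less, and not all the same way. ITGAV was at 244, 236 and 266 CPM in the controls and at 316, 314 and 296 after hnRNPA2B1 siRNA. The groups did not overlap, and the rise was 1.21-fold (log2 fold change 0.28, SE 0.05, adjusted p = 0.000128, edgeR). ITGB5, the other beta chain of ITGAV that binds EDIL3, was at 266, 284 and 248 CPM in the controls and at 195, 213 and 215 after the siRNA. It fell by 0.39 on the log2 scale (SE 0.06, adjusted p = 7.03e-06, edgeR) with no overlap. Per kilobase, the ratio of ITGB3 to ITGB5 RNA was 0.186 ± 0.00726 in sihnRNPA2B1-NC and 0.495 ± 0.0264 after the siRNA (SD, n = 3). By this measure, with the limit on ITGB3 given above, ITGB5 stayed the more abundant of these beta chains in each library of this experiment.

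ITGB1 rose, while the alpha chains ITGA5, ITGA3, ITGA2 and ITGA6 that pair with it fell. ITGB1 was at 1921, 1744 and 2071 CPM in the controls and at 2494, 2429 and 2294 after hnRNPA2B1 siRNA, a rise of 1.23-fold with no overlap (log2 fold change 0.30, SE 0.05, adjusted p = 3.92e-05, edgeR). The fibronectin-binding chain ITGA5 was at 118, 123 and 118 CPM in the controls and at 95.1, 96.6 and 98.8 after the siRNA. It fell by 0.34 (SE 0.06, adjusted p = 2.65e-05, edgeR), also with no overlap. The laminin-binding chain ITGA3 fell by 0.20 (SE 0.05, adjusted p = 0.00142, edgeR), from 5734 to 6342 CPM in the controls to 5233 to 5460. The collagen-binding chain ITGA2, a low transcript, was at 10.1, 8.66 and 12.4 CPM in the controls and at 8.51, 7.62 and 8 after the siRNA, separated by a narrow gap. Its fall was 0.40 (SE 0.12, adjusted p = 0.0144, edgeR). ITGA6 was the only gene of the 10 whose groups overlapped: it was at 42.4, 46.0 and 49.8 CPM in the controls and at 39.0, 43.3 and 40.2 after the siRNA. It fell by 0.21 (SE 0.07, adjusted p = 0.027, edgeR).

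ITGB4, the partner of ITGA6 in hemidesmosomes, rose while ITGA6 fell. ITGB4 was at 6.49, 7.06 and 7.23 CPM in the controls and at 12.98, 14.3 and 13.3 after hnRNPA2B1 siRNA. The groups were far apart relative to their spread, and the rise was 1.9-fold (log2 fold change 0.93, SE 0.11, adjusted p = 1.66e-07, edgeR).

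Of the 8 genes not chosen from earlier results, 8 passed the test after hnRNPA2B1 siRNA, 3 rising (ITGAV, ITGB1, ITGB4) and 5 falling (ITGB5, ITGA5, ITGA2, ITGA3, ITGA6). Of all 15710 genes tested in this experiment 30.4% passed, 15.1% rising and 15.4% falling. The libraries of the groups did not overlap for 7 of these 8, against 42% of all tested genes. Their median log2 fold change was -0.21, against 0.0075 for all genes. EDIL3 and ITGB3 also passed and are kept out of these counts, since these libraries may have entered their choice. The calls of ITGA2 and ITGA6 were lost when certain single libraries were left out: ITGA2 without sihnRNPA2B1-NC replicate 3 (adjusted p = 0.116) or sihnRNPA2B1 replicate 2 (0.0628), and ITGA6 without sihnRNPA2B1-NC replicate 3 (0.0784) or sihnRNPA2B1 replicate 1 (0.138) or 3 (0.0743), all by edgeR. With the 12 libraries of both experiments in 1 fit, which takes a common spread, these 8 did not pass. Their adjusted p ran from 0.111 to 0.607 by edgeR at nearly the same fold changes. EDIL3 (adjusted p = 0.0123, edgeR) and ITGB3 (0.00071) passed there. That adds no independent support, since both were chosen from earlier results and the spread draws on the libraries labelled siDRAIC.

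In the libraries labelled siDRAIC, EDIL3 and ITGB3 were also higher, and these values are a description because they led to the choice of both genes. EDIL3 was at 33.3, 19.9 and 17.1 CPM in siDRAIC-NC and at 72.9, 79.7 and 74.4 in the libraries labelled siDRAIC. The highest control lay under the lowest library labelled siDRAIC by more than 2-fold. The fitted log2 fold change was 1.69 (SE 0.22), or 1.97 without siDRAIC-NC replicate 1. ITGB3 was at 53.0, 49.2 and 48.8 CPM in the controls and at 81.4, 100.2 and 110.2 in the libraries labelled siDRAIC, again without overlap. Its log2 fold change was 0.93 (SE 0.17), or 0.92 without siDRAIC-NC replicate 1. The summed fibroblast markers were also higher in these libraries, as given above, and their part in this was not tested. The exons of ITGB3 share 2266 of 4394 bases with a same-strand gene model, AC068234.1, which had 0 counts in every library, and those of EDIL3 share 173 bases with the antisense gene AC113383.1, which had 22 to 174 counts.

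The other 8 genes did not pass the test in that comparison, where 0.713% of the 15986 genes tested did. At an unadjusted p under 0.05 the count was 2 of 8, ITGAV and ITGB4, where 10.7% of all tested genes were under it, and DESeq2 and limma-voom each called 0 of 8. None of the 8 was free of overlap between groups, against 15.6% of all tested genes that were, and their median log2 fold change was -0.02, against -0.0046 for all genes. ITGB4 had the largest fitted change of these 8 and the widest spread. It was at 13.1, 7.56 and 4.79 CPM in siDRAIC-NC and at 34.8, 39.1 and 12.6 in the libraries labelled siDRAIC. Replicate 3 of siDRAIC lay below replicate 1 of the controls, so the groups overlapped (log2 fold change 1.77, SE 0.50, adjusted p = 0.229, edgeR). Without siDRAIC-NC replicate 1 its log2 fold change was 2.16 and it still did not pass (adjusted p = 0.118, edgeR). No label states that replicate numbers pair libraries, and pairing was taken from correlations in these same libraries. With the replicate as a block on that basis, ITGB4 passed (log2 fold change 1.70, adjusted p = 3.84e-16, edgeR). Each library labelled siDRAIC was above the control of its own number in ITGB4. The block leaves little from which to estimate each gene's own spread, so p-values with it lean on spread shared over all genes. With that block 5.2% of all genes rose and 3.58% fell at adjusted p under 0.05 by edgeR.

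ITGAV, the alpha chain for EDIL3, was at 302, 147 and 160 CPM in siDRAIC-NC and at 334, 220 and 351 in the libraries labelled siDRAIC. The first control reached into the range of the other group. The log2 fold change was 0.56 (SE 0.25, adjusted p = 0.437, edgeR). With the replicate block it was 0.59 and passed (adjusted p = 0.00122), and without siDRAIC-NC replicate 1 it was 0.90 and passed (adjusted p = 0.0135). ITGB1 was at 2284, 1236 and 1233 CPM in the controls against 2137, 1515 and 2230, and replicate 1 labelled siDRAIC lay below the control of its own number. Its log2 fold change was 0.29 (SE 0.22, adjusted p = 0.681, edgeR), 0.33 with the replicate block (adjusted p = 0.139), and 0.60 without siDRAIC-NC replicate 1 (adjusted p = 0.0424). For both genes the fit without that control kept the library labelled siDRAIC of the same number. How far this enlarged the change over that with the block was not tested.

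For each of the remaining 5 genes the groups overlapped. ITGB5 was at 149 to 168 CPM in siDRAIC-NC and at 134 to 179 in the libraries labelled siDRAIC (log2 fold change -0.07, SE 0.17). ITGA3 was at 3745 to 4085 against 3748 to 4622 CPM (0.02, SE 0.16). ITGA5 was at 228 to 346 against 225 to 267 CPM (-0.24, SE 0.19). In all 3 same-numbered pairs ITGA5 was lower in the library labelled siDRAIC, but it did not pass with the replicate block either (log2 fold change -0.22, adjusted p = 0.409, edgeR). The low transcript ITGA2 was at 11.1 to 27.7 against 12.1 to 21.6 CPM (-0.26, SE 0.30), and ITGA6 at 37.2 to 71.1 against 40.3 to 57.0 (-0.18, SE 0.22). Their adjusted p ran from 0.698 to 0.978 by edgeR. These standard errors (0.16 to 0.30) are of the same order as the changes of the same genes after hnRNPA2B1 siRNA (-0.40 to -0.20).

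**Figure D2:**
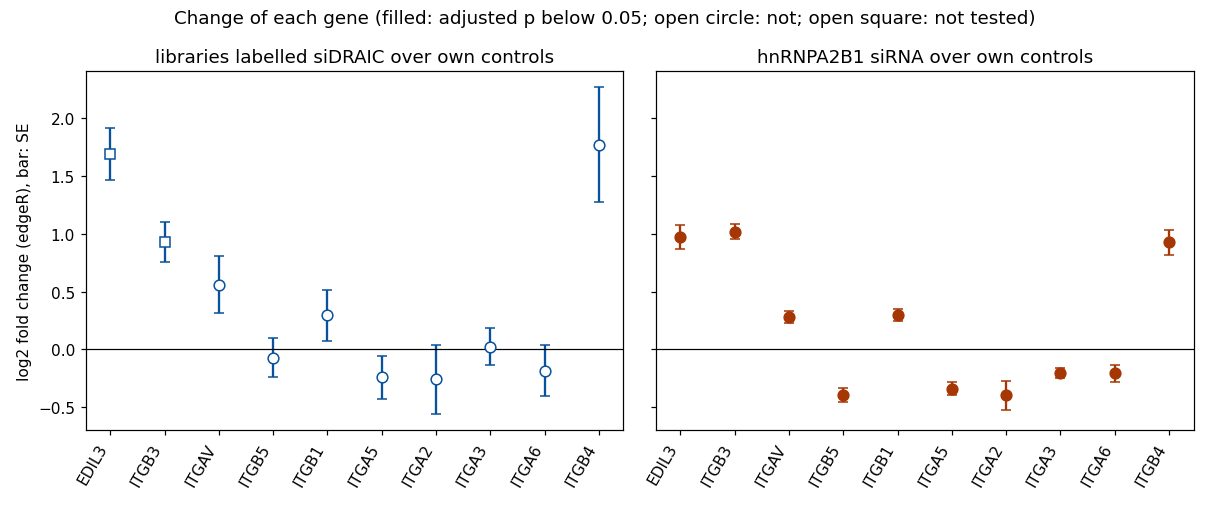
Log2 fold change of each gene over its own controls (vertical axis; bars are the SE) in the 2 experiments, filled where the adjusted p is below 0.05 and square where the gene was chosen on that comparison. The SE bars are longer on the left, where none of the 8 tested genes passed, than on the right, where all 10 did. Of these 10, EDIL3 and ITGB3 were chosen from earlier results.

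The changes in the 2 experiments were then compared directly, with positive values where the libraries labelled siDRAIC had the higher log2 fold change. None of the 8 tested genes differed, at an adjusted or unadjusted p under 0.05 by edgeR or by adjusted p with DESeq2 or limma-voom, where 0.211% of 17091 genes did at the adjusted and 9.13% at the unadjusted p. The differences ran from -0.03 for ITGB1 (SE 0.25) to 0.80 for ITGB4 (SE 0.52), with adjusted p from 0.668 to 1. This does not show that the effects were alike, since the standard errors of ITGAV, ITGA2 and ITGB4 (0.28 to 0.52) are as large as many of the changes. For EDIL3 the difference was 0.68 (SE 0.25), or 0.95 without siDRAIC-NC replicate 1, and for ITGB3 -0.13 (SE 0.17), or -0.14 without it, as a description.

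The control groups of the same cell line did not stand at the same level. EDIL3 was at 17.1 to 33.3 CPM in siDRAIC-NC and at 8.05 to 9.17 in sihnRNPA2B1-NC, and ITGB3 at 48.8 to 53.0 against 32.8 to 35.4. As a description, the log2 difference was 1.45 for EDIL3 and 0.59 for ITGB3, or 1.18 and 0.61 without siDRAIC-NC replicate 1. For EDIL3, the siDRAIC-NC libraries thus overlapped with those of the hnRNPA2B1 siRNA (15.1 to 19.02 CPM). For ITGB3 the order was sihnRNPA2B1-NC, siDRAIC-NC, sihnRNPA2B1 and siDRAIC, each group clear of the next. Of the other 8 genes, 4 passed the test between the control groups, 2 in each direction, where 51.6% of 17091 genes did (26.6% higher in siDRAIC-NC and 25% lower). The libraries of the control groups did not overlap for 3 of these 8 (ITGA5, ITGB5 and ITGA3), against 57.8% of all tested genes. ITGA5 (log2 fold change 1.26, SE 0.15, adjusted p = 5.21e-06, edgeR) and ITGA2 (0.98, SE 0.26, adjusted p = 0.00527) were higher in siDRAIC-NC. ITGB5 (-0.73, SE 0.12, adjusted p = 0.00013, edgeR) and ITGA3 (-0.59, SE 0.11, adjusted p = 0.000353) were lower. ITGAV, ITGB1, ITGA6 and ITGB4 did not pass (adjusted p = 0.205 to 0.552), but without siDRAIC-NC replicate 1 ITGAV (-0.63) and ITGB1 (-0.56) did, at adjusted p = 0.00208 and 0.00169, and ITGA6 did without siDRAIC-NC replicate 2 (adjusted p = 0.0418). ITGB4 stood at 0.28 with that first library and at -0.10 without it, and passed in neither. The control siRNA cannot be told apart from the experiment it was run in.

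Across the 4 groups, the other genes were ordered by mean CPM in ways that partly followed the experiment. ITGA5 ran from sihnRNPA2B1 (96.8 ± 1.86 CPM) through sihnRNPA2B1-NC (119.8 ± 2.95) to siDRAIC (244 ± 21) and siDRAIC-NC (283 ± 59.8; SD, n = 3), with only the last 2 overlapping. ITGA3 and ITGB5 ran the other way between experiments: siDRAIC and siDRAIC-NC overlapped at the low end, and sihnRNPA2B1 and then sihnRNPA2B1-NC stood clear above them, at 5365 ± 118 and 6037 ± 304 CPM for ITGA3 and at 207.6 ± 11.1 and 266 ± 17.9 for ITGB5. For ITGB1 the sihnRNPA2B1 group was highest (2406 ± 102 CPM) and clear of the next, while the lower 3 groups overlapped their neighbours. ITGA2 had its lowest group, sihnRNPA2B1, clear of sihnRNPA2B1-NC and overlaps above. For ITGAV, ITGA6 and ITGB4 each group overlapped its neighbour in the order, although groups further apart, such as sihnRNPA2B1-NC and sihnRNPA2B1 for ITGAV and ITGB4, could be clear of each other.

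Levels per kilobase were also expressed as a share of the summed RNA of the beta chains ITGB1 to ITGB8, in each library. ITGB1 made up 85.7 ± 3.02% in siDRAIC-NC, 85.1 ± 3.96% in the libraries labelled siDRAIC, 85.6 ± 1.73% in sihnRNPA2B1-NC and 88.2 ± 0.719% in sihnRNPA2B1 (SD, n = 3). ITGB5 came next at 8.62 ± 2.19%, 6.48 ± 2.12%, 11.2 ± 1.49% and 7.11 ± 0.590% in the same order. ITGB3 took 3.99 ± 1.00%, 5.92 ± 1.38%, 2.07 ± 0.226% and 3.51 ± 0.108%. For ITGB3 the shares of sihnRNPA2B1-NC (1.89% to 2.33%) and sihnRNPA2B1 (3.39% to 3.61%) did not overlap, while those of siDRAIC-NC (2.83% to 4.59%) and siDRAIC (4.54% to 7.29%) did. Within same-numbered pairs it was higher in the library labelled siDRAIC each time, at 4.54% against 2.83%, 7.29% against 4.54% and 5.93% against 4.59%. The RNA ratio of ITGB3 to ITGB5 per kilobase was 0.463 ± 0.0185 in siDRAIC-NC and 0.945 ± 0.23 in the libraries labelled siDRAIC, where in replicate 3 ITGB3 exceeded ITGB5 at 1.21. ITGB3 was chosen for being higher in the libraries labelled siDRAIC, so its shares and ratios there are a description and no support.

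**Figure D3:**
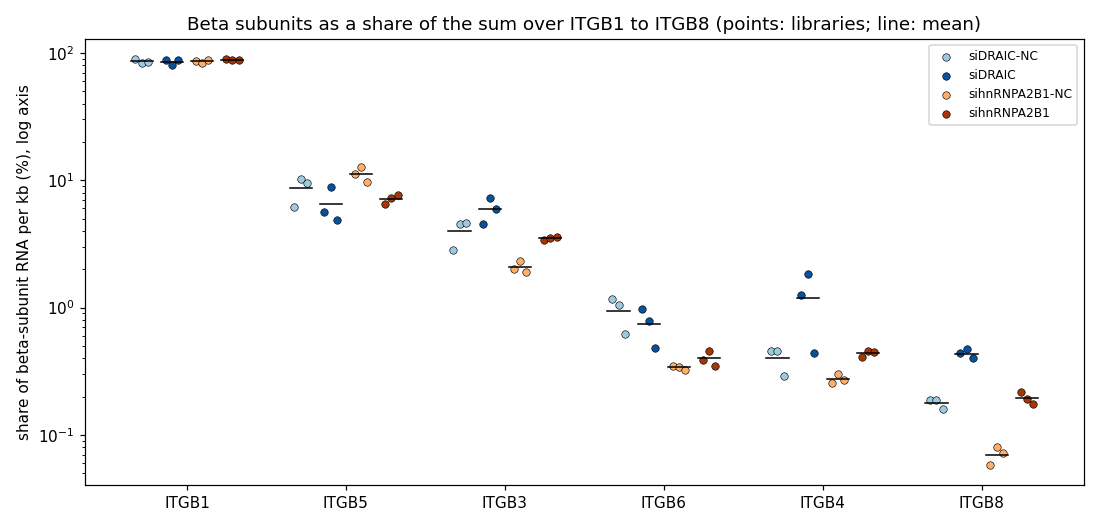
Share of each beta chain in the summed beta-chain RNA per kilobase (percent, log axis) for the 6 most abundant chains; points are libraries and lines are means, coloured by group. ITGB1 stays near 85% to 88% in every group, while ITGB3, ITGB4 and ITGB8 stand above their own controls on average in both experiments. Of these, ITGB3 was chosen from earlier results.

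Of the 17 other integrin subunits, 11 were tested in each experiment. ITGB8, another beta chain of ITGAV, was the only one that passed in the libraries labelled siDRAIC (0.582% of all genes passed upward). It was at 12.1, 7.09 and 5.90 CPM in siDRAIC-NC and at 27.2, 22.3 and 25.6 in the libraries labelled siDRAIC. The groups did not overlap (log2 fold change 1.57, SE 0.25, adjusted p = 0.0142, edgeR). The call was lost without siDRAIC-NC replicate 2 (adjusted p = 0.114) or 3 (0.115) or siDRAIC replicate 3 (0.0769), at log2 fold changes of 1.36 to 1.56. After hnRNPA2B1 siRNA, ITGB8 went from 3.28, 4.24 and 4.31 CPM to 15.3, 13.4 and 11.7, again with no overlap, a larger fold change than that of any of the 10 genes (log2 fold change 1.72, SE 0.13, adjusted p = 4.92e-11, edgeR).

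In that experiment 2 of the 11 rose and 2 fell, near the 15.1% and 15.4% of all genes. ITGB6, an epithelial beta chain of ITGAV, rose by 0.50 (SE 0.13, adjusted p = 0.00481, edgeR), from 5.59 to 6.10 CPM in the controls to 7.14 to 9.80, a call lost without sihnRNPA2B1 replicate 2 (adjusted p = 0.0704). ITGB2, the beta chain of leukocyte integrins, fell by 1.40 (SE 0.14, adjusted p = 4.69e-09, edgeR), from 11.7, 9.68 and 12.1 CPM to 3.79, 4.04 and 5.12. In the other experiment ITGB2 was at 0.19 to 0.54 CPM in all 6 libraries, so the control groups differed by a log2 fold change of -5.63 (adjusted p = 3.01e-09, edgeR). Blood and immune markers summed to at most 1.43 CPM in any library. The exons of ITGB2 share 303 bases with the antisense gene ITGB2-AS1. ITGAE fell by 0.25 (SE 0.09, adjusted p = 0.0283, edgeR), a call lost without sihnRNPA2B1-NC replicate 2 or sihnRNPA2B1 replicate 1 or 2 (adjusted p = 0.0712 to 0.165). In the fit of all 12 libraries ITGB8 and ITGB2 kept their calls and ITGB6 (adjusted p = 0.502) and ITGAE (0.32) did not. Between the control groups, 6 of 12 subunits were higher in siDRAIC-NC and 2 lower, where 26.6% of all genes were higher and 25% lower, among them ITGAX (2.18), ITGB6 (1.24), ITGAM (1.19) and ITGB8 (1.07) on the higher side. For ITGAM the control groups overlapped, at 1.79 to 4.85 CPM in siDRAIC-NC against 1.30 to 1.86. Without siDRAIC-NC replicate 1, ITGB6 stood at 0.76 and ITGB8 at 0.78, and both still passed (adjusted p = 0.0273 and 0.00143, edgeR).

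Among 33 integrin ligands and counter-receptors other than EDIL3, 25 were tested. In the libraries labelled siDRAIC 3 rose and 0 fell, where 0.582% of all genes rose and 0.131% fell. Their median log2 fold change was 0.28, with 18 of 25 above 0, against -0.0046 for all genes. FBN1, the microfibril protein fibrillin with an RGD motif, was at 3.46, 1.55 and 1.60 CPM in siDRAIC-NC and at 9.28, 8.51 and 9.69 in the libraries labelled siDRAIC. The groups were well apart (log2 fold change 2.05, SE 0.30, adjusted p = 0.0117, edgeR). THBS1, thrombospondin, was at 325, 306 and 239 CPM in the controls and at 578, 687 and 884, with no overlap (1.29, SE 0.19, adjusted p = 0.0107, edgeR). COL1A1, a collagen chain and also a fibroblast marker, gave 1.91 (SE 0.37, adjusted p = 0.0462, edgeR). FBN1 and THBS1 lost their calls without siDRAIC-NC replicate 2 or 3 or siDRAIC replicate 3 (adjusted p = 0.0574 to 0.0952), and COL1A1 without any library but siDRAIC-NC replicate 1 (adjusted p = 0.0691 to 0.238), and it was also lost with RLE factors, limma-voom and the stricter filter. With the replicate block 8 ligands rose and 4 fell, where 5.2% of all genes rose and 3.58% fell. THBS1 shares 448 exon bases with FSIP1 on the other strand, and FN1, fibronectin, did not pass (0.91, SE 0.19, adjusted p = 0.0581, edgeR).

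After hnRNPA2B1 siRNA 7 of the 25 ligands rose and 10 fell, where 15.1% of all genes rose and 15.4% fell, and the median log2 fold change was -0.01. The laminin chain LAMB3, part of a ligand of receptors with ITGA3 and ITGA6, fell by 1.23 (SE 0.08, adjusted p = 3.56e-13, edgeR). LAMB3 was at 43.2, 42.9 and 43.6 CPM in the controls and at 18.6, 18.1 and 19.95 after the siRNA, with no overlap. The RGD ligands FN1 (0.41, adjusted p = 5.57e-08, edgeR), FBN1 (1.28, adjusted p = 2.16e-07) and LTBP1 (1.45, adjusted p = 2.43e-08), a binding protein of latent TGF-beta, rose. FBN1 was at 2.60, 2.44 and 2.72 CPM in the controls and at 6.46, 6.503 and 6.29 after the siRNA. MFGE8, the closest relative of EDIL3 and named here after its values were seen, went from 16.9, 19.2 and 18.4 CPM to 12.8, 11.5 and 13.1. It fell by 0.58 (SE 0.10, adjusted p = 3.13e-05, edgeR), opposite to EDIL3. In the fit of all 12 libraries FBN1 (adjusted p = 0.0107) and LTBP1 (0.0123) passed, and LAMB3 (0.175) and FN1 (0.173) did not. That fit called 0 of the 25 ligands down, so the fall of MFGE8 also lost its call.

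Of 30 adaptors and cytoplasmic partners of integrins, 28 were tested. In the libraries labelled siDRAIC 1 rose, where 0.582% of all genes did: LIMS2, a partner of integrin-linked kinase (log2 fold change 1.45, SE 0.29, adjusted p = 0.0462, edgeR), from 1.03 to 1.42 CPM to 2.76 to 3.77. That call was lost with the same 3 settings and without any library but siDRAIC-NC replicate 1 (adjusted p = 0.0957 to 0.25). With the replicate block 3 rose, against 5.2% of all genes. After hnRNPA2B1 siRNA 1 rose and 12 fell, where 15.1% of all genes rose and 15.4% fell, and the median log2 fold change was -0.09. TLN1, talin, which binds beta chains to activate them, fell by 0.39 (SE 0.05, adjusted p = 5.24e-07, edgeR). PLEC, plectin, which anchors ITGB4, fell by 0.41 (SE 0.05, adjusted p = 8.72e-07, edgeR), while ITGB4 itself rose. The kinase PTK2B fell by 0.88 (SE 0.11, adjusted p = 7.15e-07, edgeR) and the actin cross-linker FLNA by 0.26 (SE 0.04, adjusted p = 4.41e-05, edgeR), and CAV1, caveolin, rose by 0.30 (SE 0.05, adjusted p = 2.49e-05, edgeR). In the fit of all 12 libraries, of these 5 only PTK2B passed.

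**Figure D4:**
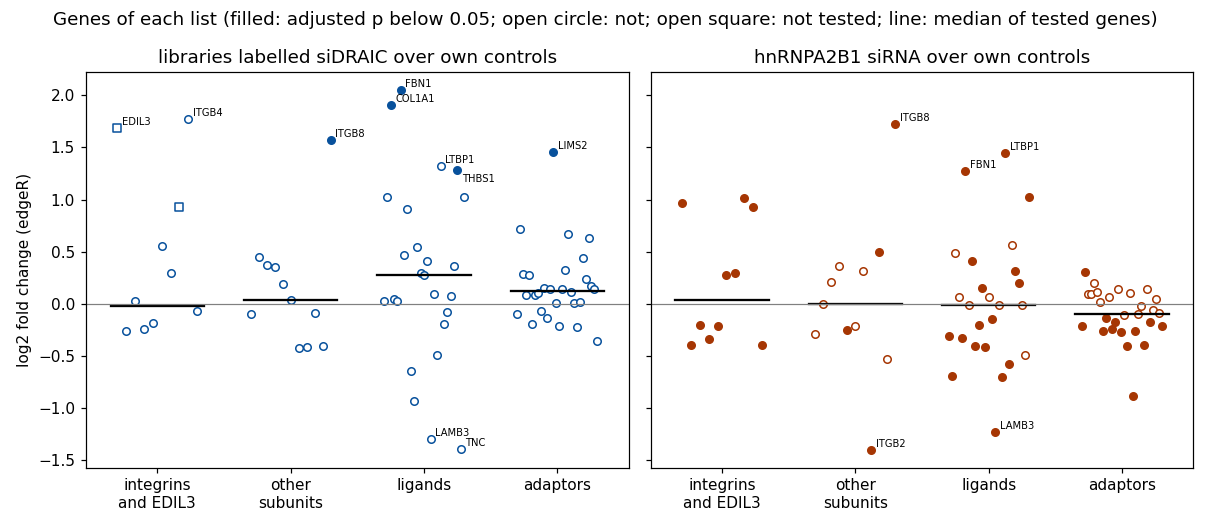
Log2 fold change (vertical axis) of the genes of each list over their own controls, left in the libraries labelled siDRAIC and right after hnRNPA2B1 siRNA; each point is a gene, filled where the adjusted p is below 0.05, square where not tested, and lines are medians of the tested genes. On the left 5 genes of the 3 wider lists are filled, and on the right LAMB3 and ITGB2 mark the low end and ITGB8 the high end.

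Between the control groups, 8 of the 25 ligands were higher in siDRAIC-NC and 7 lower, near the 26.6% and 25% of all genes. Those named for a small p were VCAM1 (log2 fold change 3.56) and NPNT (1.83) on the higher side and CCN1 (-1.58) on the lower. Of the 28 adaptors 8 were higher and 8 lower, also near those shares, among them TLN2 (1.46) and TNS3 (0.96) higher and PTK2B (-1.70) and LIMS2 (-1.52) lower. LAMA3 was higher by 0.88 and LAMB2 lower (-0.69).

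The profiles of EDIL3, ITGB3 and ITGB4 over the 12 libraries were set beside those of 11699 genes, as the root mean square difference of log2 CPM after centring each gene on its own mean. EDIL3 itself varied by 1.14 around its mean. The nearest to EDIL3 were ADAMTS10 (0.25), COL6A3 (0.29) and ST3GAL5 (0.30). ITGB3 varied by 0.55, and the nearest to it were SERINC2 (0.20), SERPINE2 (0.21) and F2R (0.23). ITGB4 varied by 0.86, and the nearest to it were FOXO4 (0.30), SSPOP (0.30) and PALM (0.31). No other gene of the 10 was among the 3 nearest to any of these. The 12 libraries share a cell line and the 4 groups, so closeness here mostly follows the group means.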

How the data were processed

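RNA sequencing counts of 12 libraries of 769-P were used. The deposited values are raw counts per Ensembl gene, in a table for each siRNA experiment. Per the labels' protocols, RNA was extracted with RNAiso Plus, and a TruSeq kit gave the libraries. Per the submitters' processing notes, STAR 2.7.10a, fastp 0.23.2, DESeq2 and StringTie were used with build hg38. No source used here gives the counting program, its annotation or its strand setting, so reads of overlapping genes cannot be told apart. Of 60617 IDs, 60261 had a symbol.

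edgeR 4.0.16 was run on each experiment separately (filterByExpr at a minimum count of 10, TMM, robust quasi-likelihood, two-sided), with Benjamini-Hochberg adjustment over all tested genes and a call at adjusted p under 0.05. The difference of effects and the control groups were tested on 12 libraries with 4 group means. SE is approximate, from the size of the log2 fold change divided by the root of the F statistic. Genes were annotated with GENCODE 29. The scripts were tested on simulated data. A value of 3 counts equals 0.0702 to 0.0974 CPM. Such floors cover counting error only.

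The members, lists and tests were chosen with earlier results of these data known. All 10 genes were named, with up to 5 called genes of each other list by smallest p and the 3 nearest profiles of EDIL3, ITGB3 and ITGB4. A few genes that meet this rule enter the counts only and are not reported here. Pairing was checked by the correlation of deviations from group means. In the DRAIC experiment same-numbered libraries gave 0.489, 0.227 and 0.277, and the others -0.409 to 0.103. Numbers are taken to pair libraries there on that basis alone, since no label states it. Alternatives were RLE factors, DESeq2 1.42.0, limma-voom (limma 3.58.1), no filter, 1 CPM in 3 libraries, the replicate block, 12 libraries in 1 fit and each library left out.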

Additional observations from a re-analysis of the deposited data

Results flagged for a closer look

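The change of THBS1, a ligand of ITGAV receptors, differed between the experiments. Its log2 fold change in the libraries labelled siDRAIC was higher than that after hnRNPA2B1 siRNA by 1.26 (SE 0.20, adjusted p = 0.0212, edgeR). The levels were 578 to 884 CPM against 239 to 325 in the controls of the DRAIC experiment, and 240 to 269 against 240 to 253 in the other. The change of PTK2B, a focal adhesion kinase relative, differed by 1.51 (SE 0.25, adjusted p = 0.0258, edgeR): it fell after hnRNPA2B1 siRNA, from 11.7 to 13.3 CPM to 6.18 to 7.26, and stood at 3.38 to 4.36 CPM in siDRAIC-NC and 5.40 to 7.18 in siDRAIC. Both were flagged by the test of the difference itself, in which 0.211% of genes passed. Both calls were lost without siDRAIC-NC replicate 3 and without each library of the hnRNPA2B1 experiment, with adjusted p over all alternatives up to 0.105 for THBS1 and 0.111 for PTK2B, and DESeq2, limma-voom and the replicate block kept both.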

How the results depend on the processing

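The number of all genes called in the libraries labelled siDRAIC was 114 and moved with the setting: 389 with DESeq2, 45 with limma-voom, 520 with no filter, 61 at 1 CPM in 3 libraries, 1404 with the replicate block, 665 with 12 libraries in 1 fit, and 9 to 1035 leaving out each library. Of the 8 tested genes 0 were called; the count was 1 with no filter (ITGB4), 2 with the replicate block, 1 with 12 libraries in 1 fit (ITGB4) and 0 to 2 leaving out each library. After hnRNPA2B1 siRNA, 12 libraries in 1 fit gave 283 calls against 4781, and 2 of the 10 genes (EDIL3 and ITGB3, chosen from earlier results). The difference of effects gave 36 calls, against 196 with DESeq2, 263 with no filter, 258 with the replicate block and 9 to 349 leaving out each library. In the hnRNPA2B1 experiment, same-numbered libraries correlated at -0.01, -0.02 and -0.05, so they share only a number, and the block gave 4414 calls and kept all 10 genes. No paired analysis was possible for the control groups because the block is nested in the experiment.

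Signs turned only for genes without a call in that comparison. In the DRAIC experiment ITGA3 was -0.0020 with no filter and -0.014 in 1 fit, and leaving out each library gave -0.11 to 0.10 for ITGA3, -0.39 to 0.014 for ITGA6 and -0.24 to 0.030 for ITGB5. In the difference ITGA6 was 0.0076 with RLE and DESeq2, 0.0055 with no filter, 0.015 with limma-voom, 0.017 with the replicate block and 0.032 at 1 CPM, where ITGB1 was 0.0038. Leaving out each library there gave -0.18 to 0.18 for ITGA6, -0.16 to 0.26 for ITGB1, -0.11 to 0.25 for ITGA5, -0.16 to 0.33 for ITGA2 and -0.22 to 0.031 for ITGB3, and between controls -0.10 to 0.55 for ITGB4. The cause was not tested. No scaling moved the median of all genes past 0.1.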
